A study of Mus musculus with 34 samples.

Results

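The genes described here are 10 readouts and components of Wnt and Hedgehog signalling, followed in mouse cells that differentiate toward midbrain neurons with a normal or altered 7qF3 locus. They were taken by name from the expected-count table: the Wnt targets Axin2, Lef1, Notum, Sp5 and Nkd1, and the Hedgehog genes Gli1, Gli2, Gli3, Ptch1 and Hhip. All 10 were found, among 29876 gene entries in all, and all 10 passed the low-count filter in every comparison. RNA was sequenced from 28 libraries in 9 groups, 3 genotypes at each of 3 stages. The mutant genotypes were a heterozygous deletion of the 7qF3 locus (129Sv df/+ in the labels), which is the mouse counterpart of human 16p11.2, and a duplication on 1 chromosome with the deletion on the other (129Sv df/dp). Control cells were 129Sv +/+, and the labels give C57BL/6N as background strain throughout. The groups held 3 deletion, 3 duplication-deletion and 3 control libraries of embryonic stem cells (ESCs), 3, 3 and 5 of neural progenitor cells (NPCs) at day 5, and 2, 2 and 4 of neurons at day 16.

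ESCs were grown on gelatine with serum and LIF. The later stages came from epiblast stem cells, grown in N2B27 with Activin and FGF2, so the ESC and NPC groups differ in medium and in a whole intermediate state as well as in time. The labels name neither a Wnt nor a Hedgehog agonist, and give no clone numbers. Whether replicates were separate differentiations is not stated, so the tests weigh differences against a spread that may be technical. Bulk RNA cannot tell fewer cells of a type from less RNA per cell.

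Wnt proteins bind Frizzled and LRP receptors and stabilise beta-catenin, which joins TCF and LEF factors on DNA and switches on target genes. Several of these targets feed back on the pathway: Axin2 is a scaffold of the complex that destroys beta-catenin, Nkd1 binds Dishevelled and dampens the signal, and Notum is a secreted enzyme that removes the lipid from Wnt proteins. Hedgehog ligands such as Shh bind Ptch1, which then releases Smo, and the signal reaches the GLI factors through the primary cilium. Gli1 and Ptch1 are the standard transcriptional readouts, Hhip is a decoy that captures the ligand, Gli2 is the main activator and Gli3 the main repressor. In the ventral midbrain both pathways pattern the floor plate, from which dopaminergic neurons arise.

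None of the 10 genes lies on chromosome 7. In the authors' deposited table, on the mm9 build, the Wnt targets are Axin2 at chr11:108781663-108812095, Notum at chr11:120515103-120522151, Sp5 at chr2:70312980-70315783, Nkd1 at chr8:91045243-91118786 and Lef1 at chr3:130813389-130926249. The same deposited table places Gli1 at chr10:126766938-126778942, Gli2 at chr1:120730638-120950196, Gli3 at chr13:15555068-15821858, Ptch1 at chr13:63609644-63666828 and Hhip at chr8:82489750-82581907.

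Axin2, Sp5 and Nkd1 were the Wnt targets that passed the test as higher in NPCs than in ESCs in all 3 genotypes. The 250 bases before their starts are printed, searched for the motif of the TCF and LEF factors that beta-catenin joins. The sequences are RefSeq's, on GRCm38.p6, for chr2:70474673-70474922 (Sp5), chr11:108920099-108920348 (Axin2) and chr8:88527383-88527632 (Nkd1), all on the plus strand and written 5′ to 3′. Capitals mark a TCF/LEF motif, searched on both strands as CTTTGA or CTTTGT followed by A or T.
Sp5: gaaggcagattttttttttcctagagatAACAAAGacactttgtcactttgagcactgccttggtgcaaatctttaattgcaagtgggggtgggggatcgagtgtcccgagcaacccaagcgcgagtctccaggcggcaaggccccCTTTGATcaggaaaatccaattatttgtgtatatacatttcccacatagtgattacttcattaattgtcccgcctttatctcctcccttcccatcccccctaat
Axin2: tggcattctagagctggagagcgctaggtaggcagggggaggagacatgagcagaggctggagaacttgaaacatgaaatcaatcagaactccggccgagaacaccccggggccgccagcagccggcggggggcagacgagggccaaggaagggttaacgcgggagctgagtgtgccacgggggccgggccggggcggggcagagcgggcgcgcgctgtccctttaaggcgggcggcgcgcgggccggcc
Nkd1: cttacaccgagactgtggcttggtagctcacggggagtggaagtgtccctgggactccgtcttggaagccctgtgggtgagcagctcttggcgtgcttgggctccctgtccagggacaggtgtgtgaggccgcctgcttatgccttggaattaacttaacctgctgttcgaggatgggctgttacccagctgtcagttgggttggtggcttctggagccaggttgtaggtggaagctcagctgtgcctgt

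Sp5, a zinc-finger factor, held 2 TCF/LEF matches, 1 starting 222 bases before the start on the minus strand and 1 starting 104 bases before it on the plus strand. Axin2 and Nkd1 held none in this window. Of 11 promoter entries for 8 of the 10 genes, 9 had no TCF/LEF match; the other entry with a match was 1 of 4 for Lef1. Of 32851 promoters of the same length, 14.84% held the motif. A GLI motif, GACCACCCA, was searched in the same way, and found in 0 of the 11 entries and in 0.2253% of all promoters. Such a match describes letters in a short window and is no evidence of a bound site, and sites outside the window were not searched. Gli1 and Notum had no entry in the promoter table used.

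Depth ran from 5578151 to 78814037 counts per library, with ESC replicate 3 and NPC replicate 5 of each genotype the shallowest, and the largest entry of a library took 19.6% to 38.8% of its counts. Levels are given in CPM, counts scaled to a common library size, here after TMM scaling, and are compared only within a gene. Genes of the 7qF3 interval checked the labels: their median level in a library, as a percentage of the mean over control libraries of the stage, averaged 43.3% ± 7.12 (SD, n = 3) in deletion ESCs, 57.9% ± 13.8 (n = 3) in deletion NPCs and 48.5% ± 14.1 (n = 2) in deletion neurons. In duplication-deletion libraries it averaged 96.7%, 101% and 84.8% at the same stages. Pluripotency markers (7 of 7 detected) summed to 876 to 1600 CPM in ESCs, 3.51 to 10.1 CPM in NPCs and 2.57 to 5.76 CPM in neurons. Progenitor markers such as Nes and Sox1 (7 of 7) summed to 89.5 to 164 CPM in ESCs, 1548 to 2759 CPM in NPCs and 672 to 1114 CPM in neurons. Dopaminergic markers (7 of 7) summed to 187 to 233 CPM in deletion neurons, 438 to 1082 CPM in duplication-deletion neurons and 483 to 623 CPM in control neurons.

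**Figure D1:**
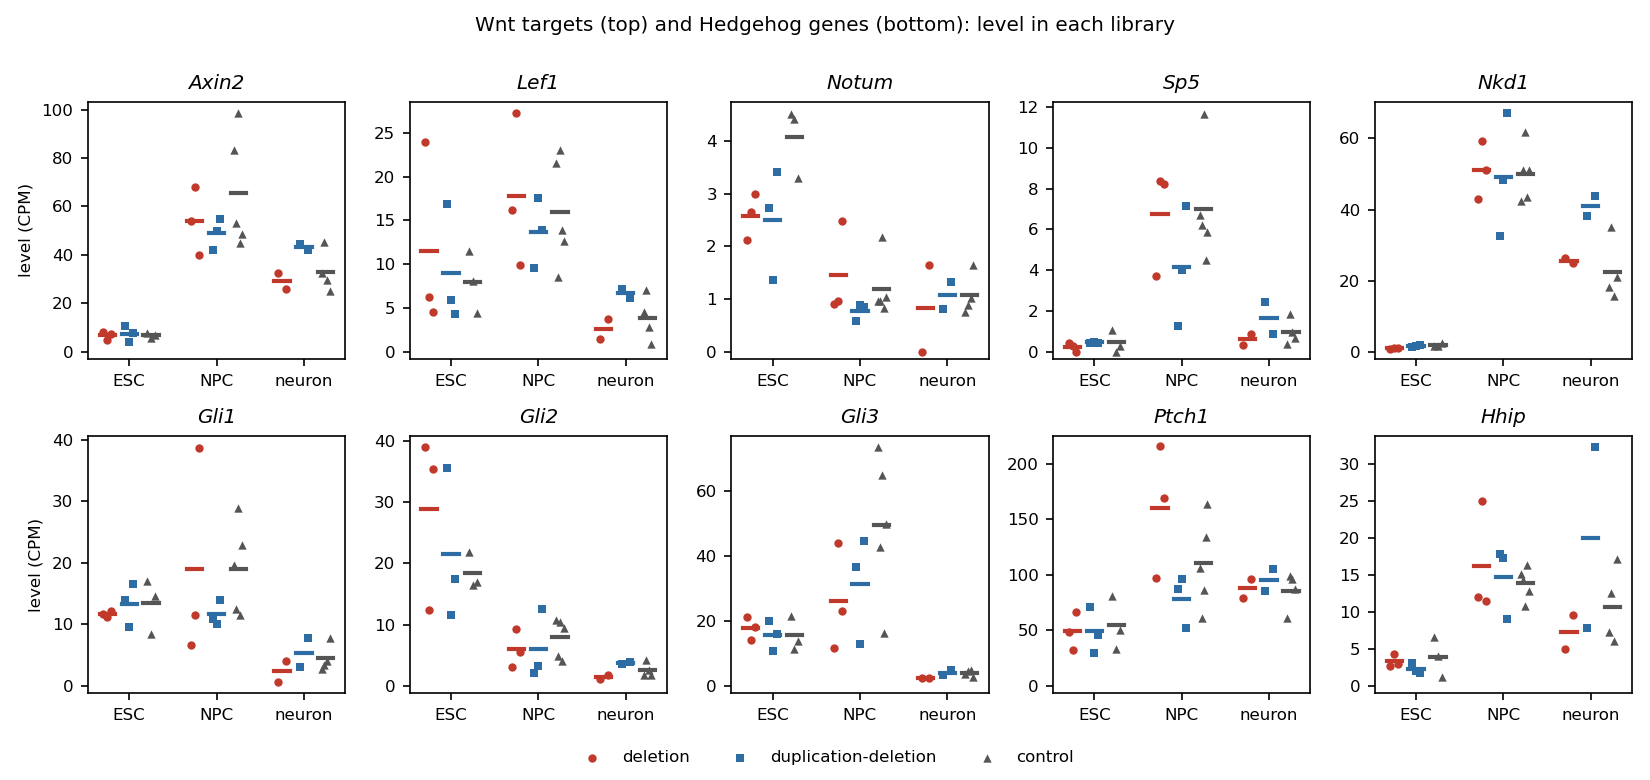
Level of each gene in every library, in CPM, with 1 panel per gene, the stages on the x axis and deletion, duplication-deletion and control libraries side by side; bars are group means. Axin2, Sp5 and Nkd1 sit near the bottom of the axis in ESCs and highest in NPCs, Gli2 is highest in ESCs, and Gli3 is lowest in neurons.

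The first question is what happened to the 10 genes as the cells left the stem cell state. In control cells 6 of the 10 rose in NPCs over ESCs, and 2 fell. The rises were Nkd1 by 4.69 ± 0.346 on the log2 scale (estimate ± SE; 25.8-fold), Sp5 by 3.90 ± 0.983, Axin2 by 3.27 ± 0.341 (9.66-fold), Hhip by 1.78 ± 0.487, Gli3 by 1.66 ± 0.418 and Ptch1 by 1.00 ± 0.345. Notum fell by 1.78 ± 0.487 and Gli2 fell by 1.23 ± 0.389 on the same scale. Lef1, a DNA-binding partner of beta-catenin, and Gli1 did not pass the test (0.98 ± 0.552 and 0.50 ± 0.407). The test was edgeR's quasi-likelihood F-test, two-sided, with Benjamini-Hochberg adjustment over 18365 genes and a threshold of 0.05; adjusted p-values of the 8 called genes ran between 4.23e-07 for Nkd1 and 0.032 for Ptch1. Of all genes tested, 21% passed as higher and 20.5% as lower, and the median log2 change was 1.33 over the 10 genes and 0.01 over all genes.

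Nkd1 gave the clearest change. In NPCs it read 42.9, 59.2 and 51.1 CPM with the deletion, 32.6, 48.2 and 67.1 CPM with duplication and deletion, and 42.4, 51.2, 61.9, 43.5 and 51.2 CPM in controls. In ESCs it read 0.704, 1.18 and 1.12 CPM in deletion libraries, 1.34, 1.73 and 1.77 CPM in duplication-deletion libraries, and 1.63, 1.69 and 2.48 CPM in control libraries. The lowest NPC library lay far above the highest ESC library, and the genotypes overlapped in NPCs.

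Axin2 had the same order of stages. NPC libraries read 53.9, 67.9 and 40.0 CPM with the deletion, 41.9, 49.9 and 54.8 CPM with duplication and deletion, and 83.3, 53.1, 98.6, 45.0 and 48.7 CPM in controls. ESC libraries read 8.08, 4.68 and 7.47 CPM with the deletion, 10.6, 4.12 and 7.72 CPM with duplication and deletion, and 7.76, 5.59 and 6.91 CPM in controls. No NPC library overlapped an ESC library, and the 2 highest libraries were both control NPCs.

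Sp5 was near the limit of detection in ESCs. In NPCs it read 3.72, 8.35 and 8.24 CPM with the deletion, 1.28, 4.02 and 7.17 CPM with duplication and deletion, and 6.72, 6.20, 11.7, 4.49 and 5.87 CPM in controls. Its ESC libraries read 0.445, 0.269 and 0 CPM with the deletion, 0.426, 0.488 and 0.443 CPM with duplication and deletion, and 1.06, 0 and 0.304 CPM in controls. All 11 NPC libraries lay above all 9 ESC libraries, the closest being a duplication-deletion NPC library at 1.28 CPM and a control ESC library at 1.06 CPM. The control ESC libraries held 41, 0 and 7 counts, so the size of the Sp5 rise is loosely set: the log2 change in control cells was 5.62 without the first control ESC replicate, 3.30 without the second and 5.28 by limma-voom, and it passed each time.

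The 3 GLI factors differed in their course. In control cells Gli3 read 73.3, 42.8, 64.8, 16.1 and 49.8 CPM in NPCs, against 21.4, 11.5 and 13.7 CPM in ESCs. Gli2 read 10.8, 4.81, 10.5, 4.07 and 9.38 CPM in control NPCs, against 21.9, 16.5 and 16.9 CPM in control ESCs. Gli1 read 19.6, 12.5, 28.9, 11.5 and 22.9 CPM in control NPCs, against 17.1, 8.47 and 14.7 CPM in control ESCs. So Gli3 was higher in NPCs apart from 1 library within the ESC range, Gli2 was lower without overlap, and Gli1 overlapped. The Gli2 call did not hold without the first control ESC replicate (adjusted p = 0.0832 by edgeR, log2 change -1.09) or without the shallow libraries (adjusted p = 0.0536).

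Ptch1, the Shh receptor and target, read 106, 60.9, 86.7, 134 and 164 CPM in control NPCs, against 81.3, 33.1 and 50.0 CPM in control ESCs. These ranges overlapped, and the call was lost by edgeR without any of 4 single libraries: control ESC replicate 2 or 3 (adjusted p = 0.150 and 0.0916) or control NPC replicate 4 or 5 (0.0661 and 0.0712). Without the shallow libraries the adjusted p was 0.178. Hhip did not overlap, and averaged 13.9 ± 2.19 CPM in control NPCs and 3.97 ± 2.69 CPM in control ESCs. Notum was low throughout, at 0.826 to 2.19 CPM in control NPCs, against 3.30 to 4.52 CPM in control ESCs.

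In deletion cells 5 genes rose in NPCs over ESCs (Nkd1 by 5.69 ± 0.376, Sp5 by 4.56 ± 0.871, Axin2 by 3.00 ± 0.355, Hhip by 2.26 ± 0.486 and Ptch1 by 1.70 ± 0.379, log2) and Gli2 fell by 2.27 ± 0.544, where 16.7% of 18183 genes passed as higher and 13.2% as lower. Without the shallow libraries the deletion Gli2 call was lost (edgeR adjusted p = 0.0782, with 2 libraries left in each group). In duplication-deletion cells 4 genes rose (Nkd1 by 4.95 ± 0.354, Sp5 by 3.19 ± 0.800, Hhip by 2.74 ± 0.578 and Axin2 by 2.73 ± 0.363) and 0 fell, where 17.5% of 18565 genes passed as higher and 14.2% as lower. Gli2 in duplication-deletion cells had a log2 change of -1.87 ± 0.671 that just missed the threshold (edgeR adjusted p = 0.0593), and passed it without the fifth NPC replicate (-2.94, adjusted p = 0.0059). That library read 12.5 CPM for Gli2, against 2.13 and 3.31 CPM in the other NPC libraries of the genotype. In the same genotype Lef1 passed without the first ESC replicate (1.45, edgeR adjusted p = 0.045) and Gli3 without the fourth NPC replicate (1.39, adjusted p = 0.0296). The Sp5 call there was lost without the shallow libraries (2.57, edgeR adjusted p = 0.0795) and held narrowly without the fifth NPC replicate (2.59, adjusted p = 0.0499).

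Genes of other cell states moved between the same stages. The midbrain floor plate markers (7 of 7 detected) summed to 95.7 to 533 CPM in NPCs, against 3.13 to 7.86 CPM in ESCs, and mesenchyme markers (7 of 7) to 42.2 to 365 CPM in NPCs, against 3.23 to 19.0 CPM in ESCs, with Dcn at 0 in 2 of the ESC groups. Their part in the changes of the 10 genes was not tested.

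From NPCs to neurons, 0 of the 10 genes rose and 7 fell in control cells, where 23.2% of 18365 genes passed as higher and 20.5% as lower. Gli3 fell by 3.62 ± 0.412, Sp5 by 2.84 ± 0.812, Gli1 by 2.07 ± 0.391, Lef1 by 2.03 ± 0.520, Gli2 by 1.57 ± 0.382, Nkd1 by 1.12 ± 0.254 and Axin2 by 0.96 ± 0.272 on the log2 scale. Ptch1 (-0.34 ± 0.307), Hhip (-0.35 ± 0.415) and Notum (-0.13 ± 0.459) did not pass. The 7 calls held by edgeR when any 1 control NPC or neuron library was left out. The median log2 change was -1.35 over the 10 genes and 0.10 over all genes. Markers of other cell types moved in the same step, over all genotypes: astrocyte markers (5 of 5 detected) summed to 253 to 677 CPM in neurons, against 19.4 to 119 CPM in NPCs, and mesenchyme markers (7 of 7) to 385 to 1116 CPM in neurons, against 42.2 to 365 CPM in NPCs, with none at 0 throughout a group. Their part in the falls was not tested.

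Gli3 had the widest drop of the 10 in control cells. Neuron libraries read 2.50 and 2.49 CPM with the deletion, 3.28 and 4.92 CPM with duplication and deletion, and 3.52, 4.43, 5.01 and 2.84 CPM in controls. NPC libraries read 11.8, 43.8 and 23.0 CPM with the deletion and 36.7, 13.0 and 44.4 CPM with duplication and deletion. Every neuron library lay below every NPC library of any genotype, and below every ESC library too.

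Axin2 and Nkd1 had smaller falls in control cells, and no neuron library of either overlapped an ESC library. Axin2 in neurons read 32.6 and 25.7 CPM with the deletion, 44.4 and 42.0 CPM with duplication and deletion, and 32.6, 45.3, 29.5 and 24.9 CPM in controls. Nkd1 in neurons read 26.3 and 24.8 CPM with the deletion, 38.1 and 43.7 CPM with duplication and deletion, and 18.3, 35.1, 15.7 and 21.0 CPM in controls. Both duplication-deletion libraries of Nkd1 lay above all 6 other neuron libraries.

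Ptch1 separated from Gli1 in neurons, although both are read as Hedgehog targets. Ptch1 read 79.1 and 96.5 CPM with the deletion, 85.9 and 106 CPM with duplication and deletion, and 61.1, 98.7, 96.7 and 87.0 CPM in controls. Gli1 read 0.651 and 4.10 CPM with the deletion, 3.03 and 7.73 CPM with duplication and deletion, and 2.68, 3.39, 4.00 and 7.80 CPM in controls. Neuronal Ptch1 thus lay within the NPC range of 52.3 to 216 CPM, and Gli1, with NPC libraries at 6.68 to 38.8 CPM, lay mostly below its own.

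In deletion cells 5 genes fell in neurons relative to NPCs (Sp5 by 3.46 ± 0.944, Gli3 by 3.39 ± 0.582, Gli1 by 3.00 ± 0.904, Lef1 by 2.80 ± 0.827 and Gli2 by 2.01 ± 0.632, log2) and 0 rose, where 10.5% of 18183 genes passed as higher and 9.39% as lower. Only the Gli3 call held by edgeR when any 1 deletion NPC library was left out. The number of the 10 genes called was then 1 without NPC replicate 3, and 2 without NPC replicate 1 or 5. The adjusted p-values of the lost calls ran between 0.0501 and 0.140 by edgeR. Leaving out a deletion neuron library leaves 1 in its group, so only sizes are given for that. The size of the Gli1 fall rested on single libraries, with a log2 change of -4.74 without neuron replicate 3 and -1.91 without NPC replicate 5, and that of Gli3 was -2.80 without NPC replicate 3. All 10 estimates were negative in deletion cells, where 50.7% of those over all genes were positive. In duplication-deletion cells 1 gene fell, Gli3 by 2.90 ± 0.574, and 0 rose, where 8.04% of 18565 genes passed as higher and 6.95% as lower; the Gli3 call was lost without either neuron library (edgeR adjusted p = 0.101 without the second and 0.063 without the fourth). The other 9 estimates in that genotype ran from -1.28 for Sp5 to 0.50 for Notum. That fewer genes passed in duplication-deletion cells was not shown to be a difference between genotypes: the tests of that difference, given further on, passed for none of the 10.

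**Figure D2:**
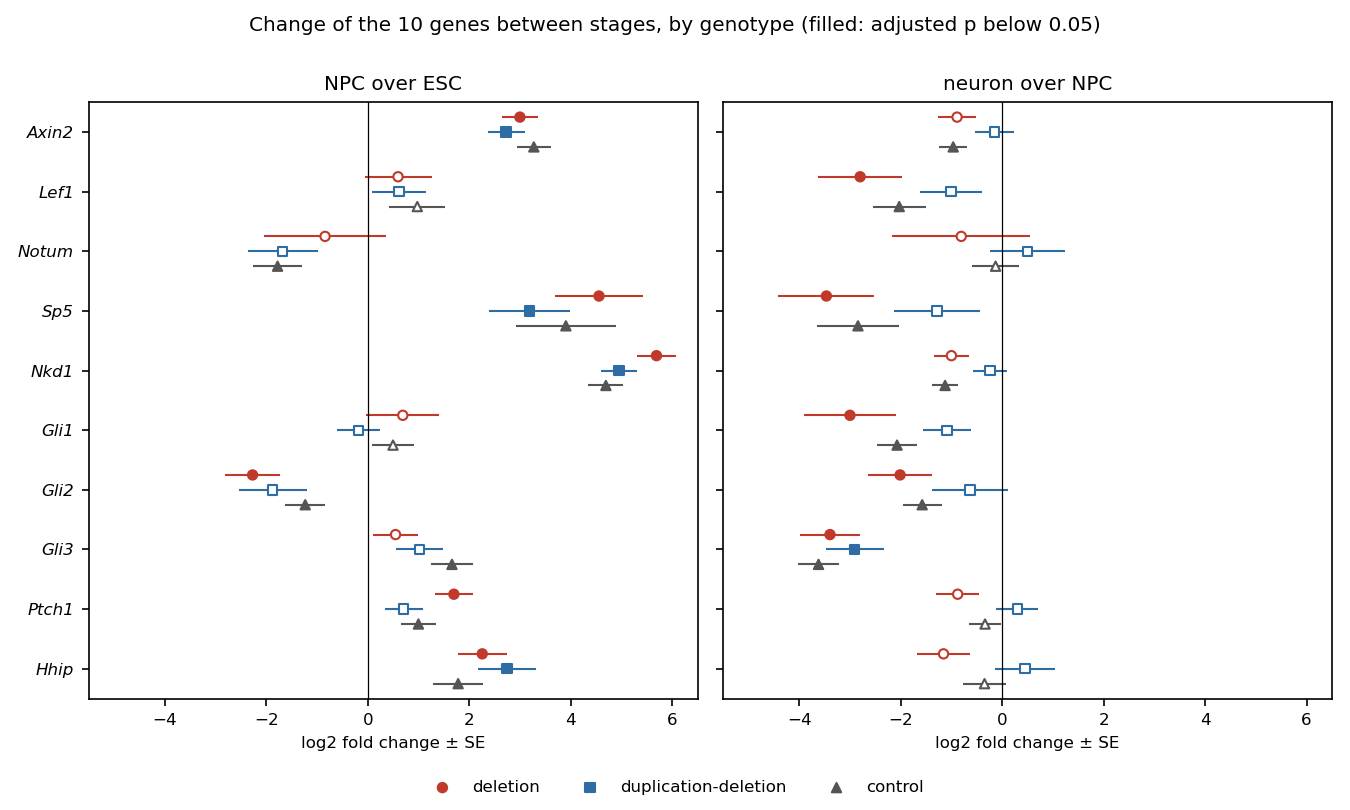
Log2 fold change with its SE (edgeR) for each gene, NPCs over ESCs on the left and neurons over NPCs on the right, by genotype; filled symbols passed an adjusted p of 0.05. Nkd1, Sp5 and Axin2 passed in all 3 genotypes on the left, and Gli3 in all 3 on the right.

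Ranked by mean level over the 9 groups, most neighbouring groups overlapped. For Axin2 the 1 step without overlap lay between deletion neurons (29.2 ± 4.87 CPM) and duplication-deletion ESCs (7.47 ± 3.23 CPM). Nkd1 had 3 such steps, between deletion neurons (25.6 ± 1.07 CPM) and duplication-deletion neurons (40.9 ± 3.98 CPM), between control neurons (22.5 ± 8.64 CPM) and control ESCs (1.93 ± 0.473 CPM), and between deletion ESCs (1.00 ± 0.259 CPM) and duplication-deletion ESCs (1.61 ± 0.241 CPM). Gli3 had 2, between duplication-deletion neurons (4.10 ± 1.16 CPM) and control ESCs (15.5 ± 5.18 CPM), and between deletion neurons (2.50 ± 0.00496 CPM) and control neurons (3.95 ± 0.959 CPM). Gli2, Gli1 and Notum had 1 each, and Lef1, Sp5, Ptch1 and Hhip had none, each over groups of 2 to 5 libraries. Such gaps were common among all genes tested: the libraries of 38.9% to 52.7% of them did not overlap between consecutive stages of a genotype, and those of 2.35% to 39.8% between genotypes of a stage.

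The second question is whether the 7qF3 genotype altered these genes. None of the 10 passed the test in any of the 9 comparisons of genotypes within a stage. Over these 90 tests, 84 log2 estimates lay within 1 of 0, 2 had an unadjusted p under 0.05, and the extremes were -1.43 and 1.04. Genes of the 7qF3 interval did not pass either: for deletion over control 0 of 22 tested in ESCs, 0 of 23 in NPCs and 0 of 23 in neurons were called, with median log2 changes of -1.21, -0.70 and -0.92. Few genes of any kind passed in this design, so the counts of members are read against the shares of all genes. In ESCs, with 3 libraries per genotype, the share of 16470 genes passing was 0% for deletion over control, 0% for duplication-deletion over control and 0% for deletion over duplication-deletion by edgeR, with 207, 51 and 164 genes at an unadjusted p under 0.05. With the replicate number as a block, which pairs the ESC libraries, the counts over all genes were 9, 7 and 13, and again 0 of the 10; DESeq2 called 7, 4 and 18 genes. In NPCs the shares of 16783 genes were 0.00596%, 0.0119% and 0.0238%, and in neurons 0%, 0.039% and 0.0335% of 17931, in the same order of comparisons. Deletion over control in neurons had 651 genes at an unadjusted p under 0.05, and 64 by DESeq2.

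The authors' deposited table lists 7 of the 10 genes in each ESC comparison of a mutant with control, without Sp5, Nkd1 and Hhip, and all 10 in NPCs and neurons. In its 6 comparisons 0 of them had an adjusted p under 0.05, the lowest being 0.361 for Nkd1 in duplication-deletion neurons in the authors' deposited table.

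In ESCs, Notum and Nkd1 were the genes whose deletion and control libraries did not overlap. Notum read 2.11, 2.66 and 2.99 CPM in deletion ESCs, against 4.52, 4.43 and 3.30 CPM in control ESCs (log2 change -0.61 ± 0.433). Nkd1, with the values given above, had a log2 change of -0.89 ± 0.500. That is 2 of 10 genes, where 6.96% of all genes had libraries that did not overlap in this comparison. For duplication-deletion over control it was 0 of 10 (2.61% of all genes) and for deletion over duplication-deletion 1 of 10, Nkd1 (4.88%).

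In NPCs Nkd1 had a log2 change of 0.04 for deletion over control (95% interval -0.47 to 0.55) and of -0.03 for duplication-deletion over control (-0.54 to 0.49). Axin2 had -0.28 (-0.90 to 0.35) and -0.43 (-1.06 to 0.19). Both intervals for Nkd1 leave out a change of 1.5 times either way; those for Axin2 do not. Sp5 had a log2 change of -0.77 for duplication-deletion over control, and Notum one of 0.91 for deletion over duplication-deletion; neither passed. Gli3 read 11.8, 43.8 and 23.0 CPM in deletion NPCs, with a log2 change of -0.91 ± 0.541 over controls, but 2 control libraries, at 42.8 and 16.1 CPM, lay inside the deletion range.

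Ptch1 was the gene with the smallest unadjusted p in NPCs, for deletion over duplication-deletion (0.0187 by edgeR). It read 97.4, 216 and 169 CPM in deletion NPCs, against 87.2, 96.1 and 52.3 CPM in duplication-deletion NPCs, a log2 change of 1.04 ± 0.385 (95% interval 0.20 to 1.87) with an adjusted p of 1.00. The 2 sets did not overlap, by a margin of about 1 CPM between 97.4 and 96.1, and the control libraries, at 60.9 to 164 CPM, overlapped each. Deletion NPCs carried replicate numbers 1, 3 and 5, and duplication-deletion NPCs 2, 4 and 5. They shared number 5 alone, so replicate number and genotype can be told apart only in part between these groups. With Notum, 2 of 10 genes did not overlap in this comparison, against 6.71% of all genes; the shares were 0 of 10 for deletion over control (3.12%) and 0 of 10 for duplication-deletion over control (2.35%). Markers of other cells also varied in NPCs: forebrain markers (7 of 7 detected) summed to 19.7 to 74.7 CPM in deletion NPCs, 9.77 to 15.2 CPM in duplication-deletion NPCs and 7.36 to 18.4 CPM in control NPCs. Mesoderm and primitive streak markers (6 of 6) summed to 26.2 to 36.1, 8.11 to 67.4 and 3.85 to 16.8 CPM in the same groups, with Msgn1 at 0 in deletion NPCs and Mesp1 and Msgn1 at 0 in control NPCs. Of these markers 2, 2 and 1 averaged at least 1 CPM in the same groups, and Tbx6 among them is itself a gene of the 7qF3 interval. The part of these other cells in the NPC values was not tested.

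In neurons the estimates leaned one way without passing. For duplication-deletion over control 9 of 10 were positive (median 0.43 over the 10, -0.05 over all genes), for deletion over control 2 of 10 were positive (median -0.56, against -0.03 over all genes), and for deletion over duplication-deletion 0 of 10 were (median -0.92, against 0.04). These comparisons share libraries, and the 10 genes are not independent of each other, so no test was made of the lean. Deletion neurons carried replicate numbers 1 and 3, and duplication-deletion neurons 2 and 4. These 2 genotypes shared no number, so replicate number and genotype cannot be told apart between them. Nkd1 had the smallest p for duplication-deletion over control, with a log2 change of 0.84 ± 0.340 (95% interval 0.08 to 1.61; unadjusted p = 0.0339 and adjusted p = 0.681 by edgeR). It was also the 1 of 10 genes whose libraries did not overlap there, against 19% of all genes. For deletion over control that gene was Gli3 (1 of 10, against 9.92%), at -0.65 ± 0.431. For deletion over duplication-deletion 5 of 10 did not overlap (Axin2, Lef1, Nkd1, Gli2 and Gli3), where 39.8% of all genes did not.

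Neuron libraries also differed in markers of other cell types. The dopaminergic sum given above was lower in both deletion libraries than in all other neuron libraries. Th, the rate-limiting enzyme of dopamine synthesis, read 11.4 and 32.6 CPM in deletion neurons, 43.2 and 179 CPM in duplication-deletion neurons, and 36.4 to 96.0 CPM in control neurons. The floor plate sum was 243 and 347 CPM in deletion neurons, 512 and 514 CPM in duplication-deletion neurons and 156 to 367 CPM in control neurons. Endothelial markers (5 of 5 detected) summed to 4.23 and 4.73 CPM, 24.2 and 45.7 CPM, and 3.81 to 17.6 CPM in the same groups, with Cldn5 at 0 in both mutants. In deletion neurons the floor plate and endothelial sums thus lay within the control range. Mesoderm and primitive streak markers summed to 36.2 and 11.9 CPM in deletion neurons, 12.1 and 78.3 CPM in duplication-deletion neurons and 4.28 to 11 CPM in control neurons. Mesp1 and Msgn1 were at 0 in both mutants, Mixl1 in duplication-deletion neurons and Msgn1 in controls. All 4 mutant libraries lay above the controls, the lowest at 11.9 CPM only just above 11 CPM. In each neuron group 2 of these 6 markers averaged at least 1 CPM, and 1 of the 6, Tbx6, is itself a gene of the 7qF3 interval. The part of these cell types in the values of the 10 genes was not tested.

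**Figure D3:**
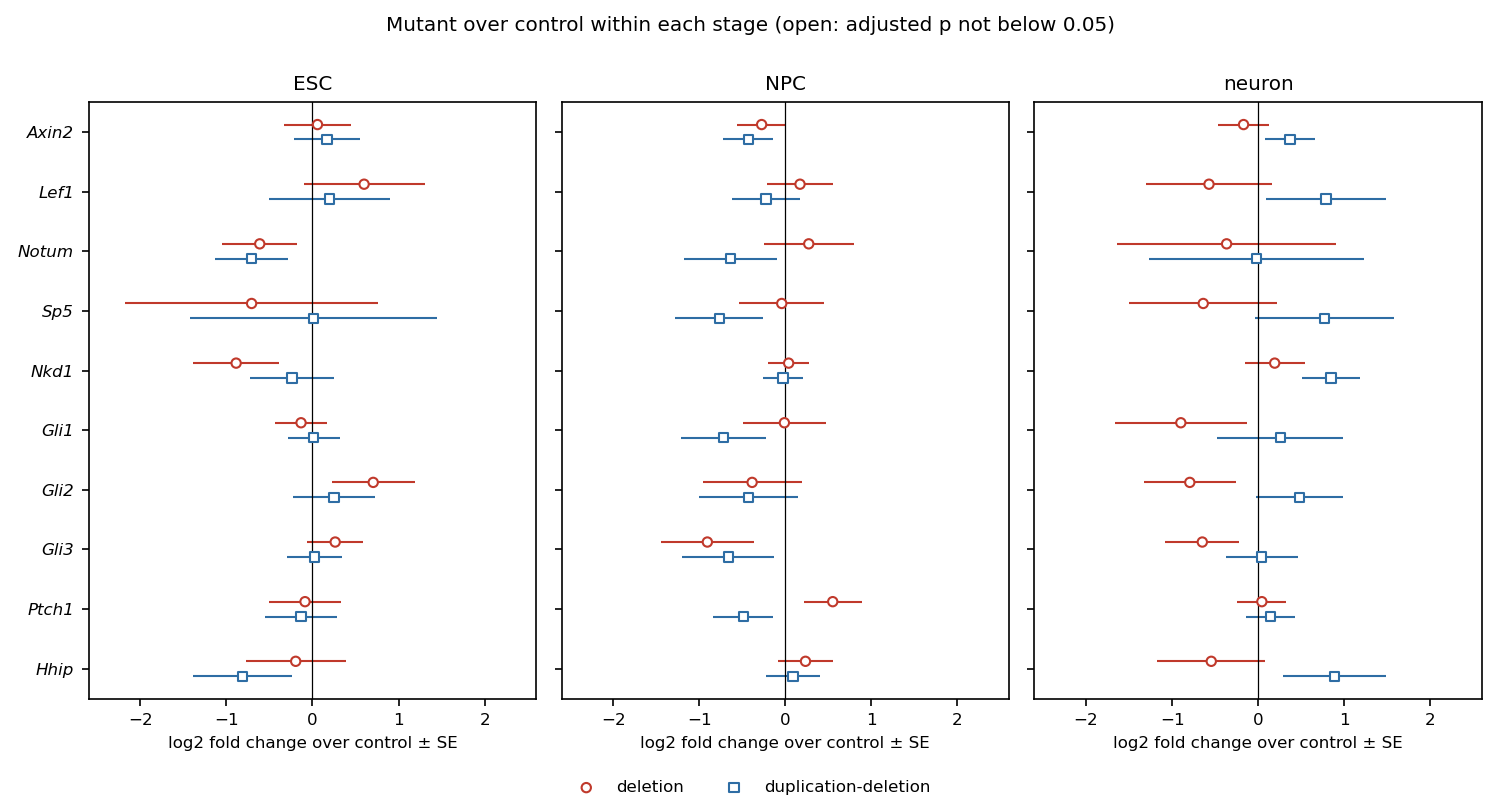
Log2 fold change over control with its SE (edgeR) in each stage, deletion above duplication-deletion for each gene; all symbols are open because no adjusted p fell below 0.05. In neurons 9 of 10 duplication-deletion estimates and 2 of 10 deletion estimates lie right of 0.

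Whether a genotype effect differed between stages was tested as an interaction over all 28 libraries and 19996 genes. None of the 10 passed by edgeR in any of the 4 tests: the deletion effect in NPCs minus that in ESCs (0.005% of all genes passed), in neurons minus NPCs (0.005%), and the duplication-deletion effect in NPCs minus ESCs (0.005%) and in neurons minus NPCs (0%). For the last, 1004 of all genes had an unadjusted p under 0.05, and 34 passed by DESeq2. Nkd1 had the smallest unadjusted p among the members in both tests where 1 was under 0.05: 0.0253 for the deletion effect in NPCs minus ESCs (0.99 ± 0.417, 95% interval 0.13 to 1.86) and 0.0344 for the duplication-deletion effect in neurons minus NPCs (0.89 ± 0.395, 0.07 to 1.70), with adjusted p-values of 1.00 and 0.962. All 10 estimates of the last test were positive, against 44.9% of those over all genes. The 10 genes are not independent of each other, and this lean was not tested. Notum passed by edgeR in the deletion effect in neurons minus NPCs once the third deletion neuron replicate was left out (adjusted p = 0.0176), and likewise in neurons over NPCs of deletion cells (adjusted p = 0.0165); the deletion neuron library that remains, assumed to vary like the other groups, had 0 Notum counts, so no fold is given.

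The other genes of both pathways show what surrounded these readouts. In control cells 8 of 16 tested Wnt ligands rose in NPCs over ESCs and 0 fell (median log2 change 2.88, against 0.01 over all genes). In this step 21% of all genes passed as higher and 20.5% as lower. Wnt5a, which acts mainly outside the beta-catenin route, averaged 77.1 ± 36.7 CPM in control NPCs (SD, n = 5) and 1.92 ± 0.511 CPM in control ESCs (n = 3). Wnt3 averaged 5.59 ± 3.20 and 0.277 ± 0.262 CPM, and Wnt5b 5.59 ± 2.16 and 0.465 ± 0.203 CPM. Wnt1, the ligand of the midbrain-hindbrain boundary, averaged 6.10 ± 1.98 CPM in control NPCs and had 0 counts in the 3 control ESC libraries, which makes it at least 185-fold higher, with a floor of 3 counts over the group.

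Among genes of Wnt secretion and reception, 12 of 23 rose and 3 fell in control NPCs over ESCs (median 1.08). Wls, the carrier that brings Wnt proteins to the cell surface, averaged 169 ± 53.1 CPM in NPCs and 5.01 ± 2.87 CPM in ESCs, and the receptor Fzd3 668 ± 179 and 35.7 ± 4.54 CPM. Fzd5, another receptor, went the other way, at 5.19 ± 1.87 CPM in NPCs and 75.7 ± 8.10 CPM in ESCs. Rspo2, an R-spondin that strengthens Wnt signals, averaged 7.33 ± 3.38 and 0.0317 ± 0.0278 CPM. Secreted inhibitors were split: 5 of 10 rose and 2 fell (median 1.91), with Dkk2 at 49.2 ± 21.3 CPM in NPCs and 0.0145 ± 0.0251 CPM in ESCs, Frzb at 12.8 ± 4.04 and 0.423 ± 0.450 CPM, Sfrp2 at 16.4 ± 5.29 and 3.72 ± 1.31 CPM, and Sfrp4 lower in NPCs (-3.72 ± 0.536 log2).

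Of 21 genes of the destruction complex and TCF factors, 6 rose and 1 fell in control NPCs over ESCs (median 0.27), the fall being Tcf7, a partner of beta-catenin like Lef1 (-1.58 ± 0.389 log2). Apc2 (2.77 ± 0.364), Dvl3 (1.90 ± 0.409) and Pygo1 (2.95 ± 0.620) were among the rises. Other Wnt targets rose in 6 of 9 cases, with 0 falls (median 2.05): Apcdd1 averaged 242 ± 108 CPM in NPCs and 4.67 ± 0.594 CPM in ESCs, Tnfrsf19 117 ± 29.7 and 8.61 ± 1.24 CPM, Sp8 14.9 ± 6.44 and 0.451 ± 0.314 CPM, and the cell cycle gene Ccnd1 345 ± 94.3 and 82.4 ± 38.1 CPM.

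On the Hedgehog side, 2 of 6 genes of the ligands and their release rose in control NPCs over ESCs and 0 fell (median 1.15). Shh itself averaged 95.2 ± 76.3 CPM in NPCs and 0.146 ± 0.252 CPM in ESCs, and Scube1, of the family that helps release the ligand, 61.5 ± 24.0 and 0.841 ± 0.234 CPM. Receptors and co-receptors rose in 5 of 7 cases with 0 falls (median 2.19): Smo, the signal transducer that Ptch1 holds back, averaged 234 ± 39.4 and 50.9 ± 24.1 CPM, and the co-receptors Boc and Gas1 20.6 ± 12.2 and 1.92 ± 0.806 CPM, and 19.1 ± 8.46 and 1.49 ± 0.865 CPM. Gpr161, a ciliary receptor that restrains the pathway, averaged 6.72 ± 1.25 and 1.04 ± 0.111 CPM. Of 13 transduction and cilium genes 6 rose and 0 fell (median 0.67), with Prkaca, Prkacb, Stk36 and Glis2 changed by 1.04 ± 0.282, 1.12 ± 0.230, 1.37 ± 0.441 and 0.98 ± 0.327 (log2).

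Other Hedgehog targets rose in 7 of 10 cases and fell in 1 (median 5.00). Foxa2, a floor plate factor, averaged 62.5 ± 47.7 CPM in NPCs and 1.96 ± 1.16 CPM in ESCs, and Bcl2, a survival gene, 32.6 ± 4.81 and 0.951 ± 0.766 CPM. Nkx2-2 and Nkx6-1, ventral neural tube factors, had 0 counts in control ESCs and were at least 238-fold and at least 121-fold higher in control NPCs, with the same floor. In the same step Gli1 did not pass the test (0.50 ± 0.407), while Hhip (1.78) and Ptch1 (1.00) passed as higher. The Ptch1 call depended on single libraries, as given above. Whether changes differed between genes was not tested.

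The same lists were counted in the mutants. In NPCs over ESCs 16.7% of all genes passed as higher and 13.2% as lower in deletion cells, and 17.5% and 14.2% in duplication-deletion cells. In deletion cells 9 of 15 Wnt ligands, 10 of 23 secretion and receptor genes, 5 of 10 inhibitors and 5 of 10 other Wnt targets rose in NPCs over ESCs, with 0, 2, 1 and 1 falls, as did 4 of 7 Hedgehog receptors and 7 of 10 other Hedgehog targets, with 0 falls. In duplication-deletion cells the rises were 7 of 16, 9 of 23, 6 of 10 and 4 of 10 on the Wnt side, with 1, 3, 1 and 1 falls, and 5 of 7 and 8 of 10 on the Hedgehog side, with 0 and 1 falls. Shh averaged 120 ± 30.8 CPM in deletion NPCs and 0.0622 ± 0.108 CPM in deletion ESCs; it averaged 93.7 ± 58.6 CPM in duplication-deletion NPCs and had 0 counts in the ESCs of that genotype, where it was at least 4175-fold higher. None of the genes on these 9 lists passed between genotypes in any stage, nor in an interaction test. Whether the counts differ between genotypes was not tested.

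From NPCs to neurons more genes of these lists fell than rose in control cells, where 20.5% of all genes passed as lower and 23.2% as higher. Falls were near that share for Wnt ligands, other Hedgehog targets, the destruction complex and TCF list, and Hedgehog transduction and cilium genes. Wnt ligands fell in 3 of 16 cases with 0 rises (median -0.22, against 0.10 over all genes), Wnt1 to 0.159 ± 0.134 CPM in neurons (n = 4), against 6.10 ± 1.98 CPM in NPCs. Secretion and receptor genes fell in 10 of 23 cases and rose in 1, among them the R-spondin Rspo1 (1.08 ± 0.827 CPM in neurons and 26.4 ± 13.2 CPM in NPCs), Fzd10 (3.42 ± 1.36 and 25.8 ± 18.7 CPM) and Fzd7 (24.4 ± 6.34 and 72.1 ± 30.3 CPM). Inhibitors fell in 5 of 10 cases and rose in 2, with Dkk1 at 0.297 ± 0.236 and 5.66 ± 4.40 CPM. Other Wnt targets fell in 4 of 9 cases with 0 rises, the steepest being Ccnd1, at 14.1 ± 3.23 CPM in neurons and 345 ± 94.3 CPM in NPCs.

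Hedgehog receptors fell in 4 of 7 cases and rose in 1 (median -1.39): Smo averaged 67.2 ± 14.3 CPM in control neurons and 234 ± 39.4 CPM in control NPCs, and Lrp2, which helps bring Shh to its receptor, 17.1 ± 6.29 and 136 ± 56.8 CPM. Ligand genes fell in 3 of 6 cases, Shh to 24.0 ± 10.8 CPM in neurons, against 95.2 ± 76.3 CPM in NPCs. Transduction and cilium genes went both ways, 4 of 13 up and 3 down, with Prkacb at 276 ± 65.4 CPM in neurons and 62.5 ± 10.6 CPM in NPCs, and Evc, a ciliary protein, at 6.52 ± 1.10 and 17.8 ± 3.20 CPM. Other Hedgehog targets fell in 2 of 10 cases, and the destruction complex and TCF list was even, 4 of 21 up and 4 down, with Apc2 up (3.18 ± 0.301) and Tcf7 down (-1.95 ± 0.390).

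In neurons over NPCs of deletion cells the falls were 1 of 15 Wnt ligands, 2 of 23 receptors, 3 of 10 inhibitors, 2 of 10 other Wnt targets, 2 of 7 Hedgehog receptors and 1 of 10 other Hedgehog targets; in duplication-deletion cells they were 1 of 16, 2 of 23, 2 of 10, 1 of 10, 1 of 7 and 2 of 10. Ccnd1 fell in both, at 9.53 ± 2.96 CPM in deletion neurons and 214 ± 33.8 CPM in deletion NPCs, and at 12.7 ± 0.908 and 188 ± 104 CPM in the duplication-deletion cells. With 2 neuron libraries a genotype, fewer genes of any kind passed in the mutants. Of all genes 9.39% passed as lower in deletion cells and 6.95% in duplication-deletion cells, against 20.5% in control cells.

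**Figure D4:**
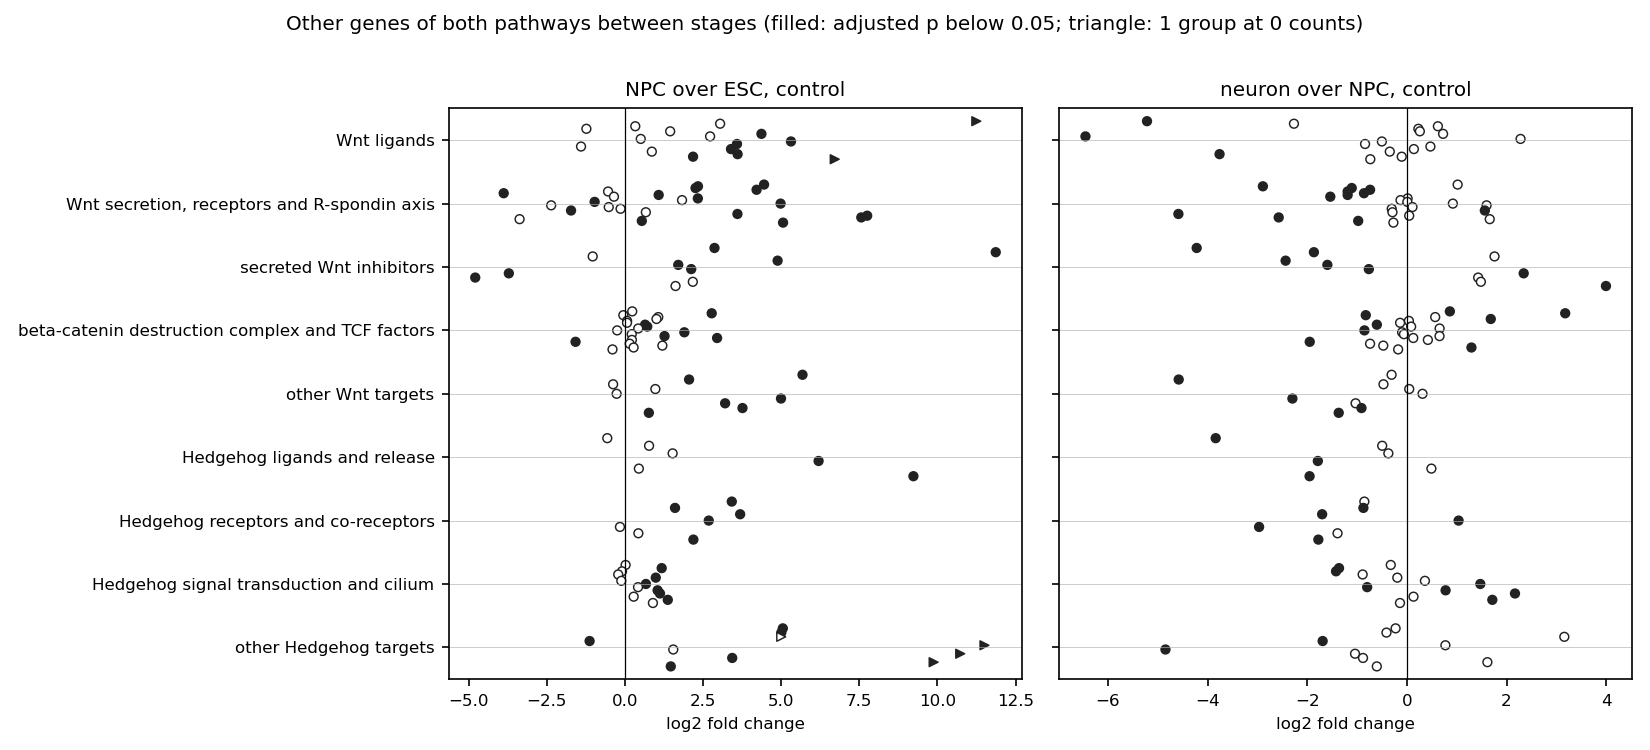
Log2 fold change of each tested gene of the 9 other pathway lists in control cells, NPCs over ESCs on the left and neurons over NPCs on the right (edgeR; filled symbols passed an adjusted p of 0.05, and triangles are genes with 0 counts in 1 group, whose fold is not a measured size). Genes are not labelled. On the left most filled symbols lie right of 0, and on the right most lie left of 0. Dkk2 lies farthest right in the left panel at 11.87, a loosely set size because Dkk2 was near the limit of detection in control ESCs.

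Other genes followed the same course as Axin2 and Gli1. Over the 28 libraries and 11185 genes with a mean of at least 5 CPM, the 5 genes whose log2 CPM correlated best with Axin2 were Otx1 (r = 0.971), Mylk (0.964), Lzts1 (0.963), Mid1 (0.962) and Cdh2 (0.961). For Gli1 they were Cdc23 (0.930), Rcc2 (0.922), Hist2h2ac (0.922), Hist1h2bm (0.918) and Tbl3 (0.917). Libraries of a stage cluster together, so these values mostly record the order of the stages, and no p is given.

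Within a stage no pair of the 10 genes had a correlation that passed. All 45 pairs were correlated in log2 CPM over the 9 ESC, 11 NPC and 8 neuron libraries, genotypes pooled, which makes 135 relations, and 0 passed after Benjamini-Hochberg adjustment of permutation p-values for either Pearson's r or Spearman's rho.

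A ligand could be compared with its targets because Shh varied between NPC libraries. It read 153, 117 and 91.4 CPM in deletion NPCs, 109, 143 and 29.1 CPM in duplication-deletion NPCs, and 50.8, 76.8, 49.2, 230 and 69.3 CPM in control NPCs. The comparison was made after the values of Shh and Gli3 had been seen, with all 10 genes, over the 11 libraries in log2 CPM. Gli3 was lower where Shh was higher (Pearson r = -0.768, permutation p = 0.00546, adjusted over the 10 relations 0.0491; Spearman rho = -0.845, permutation p = 0.0017, adjusted 0.0165). Gli2 did likewise (r = -0.741, permutation p = 0.00982, adjusted 0.0491; rho = -0.818, permutation p = 0.0033, adjusted 0.0165). Without the 2 libraries farthest from the median of Shh, r was -0.865 for Gli3 and -0.729 for Gli2, and without the 3 shallow libraries it was -0.870 and -0.652 (n = 8).

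Gli1 passed by rank only (rho = -0.727, permutation p = 0.0143, adjusted 0.0476; r = -0.496, permutation p = 0.119, adjusted 0.194). Ptch1 and Hhip had positive values that did not pass, Ptch1 with r = 0.460 (permutation p = 0.155, adjusted 0.194) and Hhip with r = 0.589 (permutation p = 0.056, adjusted 0.187). The deviations from each genotype's mean gave r = -0.791 for Gli3 and -0.819 for Gli2. The lowest Gli3 values, 11.8, 13.0 and 16.1 CPM, came from 1 library of each genotype. These were the 3 libraries with the most Shh. The duplication-deletion and control ones were both replicate 4, and their deviations from group means correlated (r = 0.650). The permutation p-values treat the 11 libraries as independent and so do not allow for such sharing. Regional markers also set these 3 libraries apart. In the deletion, duplication-deletion and control library concerned the floor plate sum was 299, 533 and 524 CPM and the dopaminergic sum 115, 133 and 87.7 CPM, the 3 highest of the 11 NPC libraries in each case. The dorsal midbrain sum (6 of 6 markers detected) was 29.8, 22.3 and 16.4 CPM in these libraries, the 3 lowest of the 11. The part of regional makeup in the relation with Shh was not tested.

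**Figure D5:**
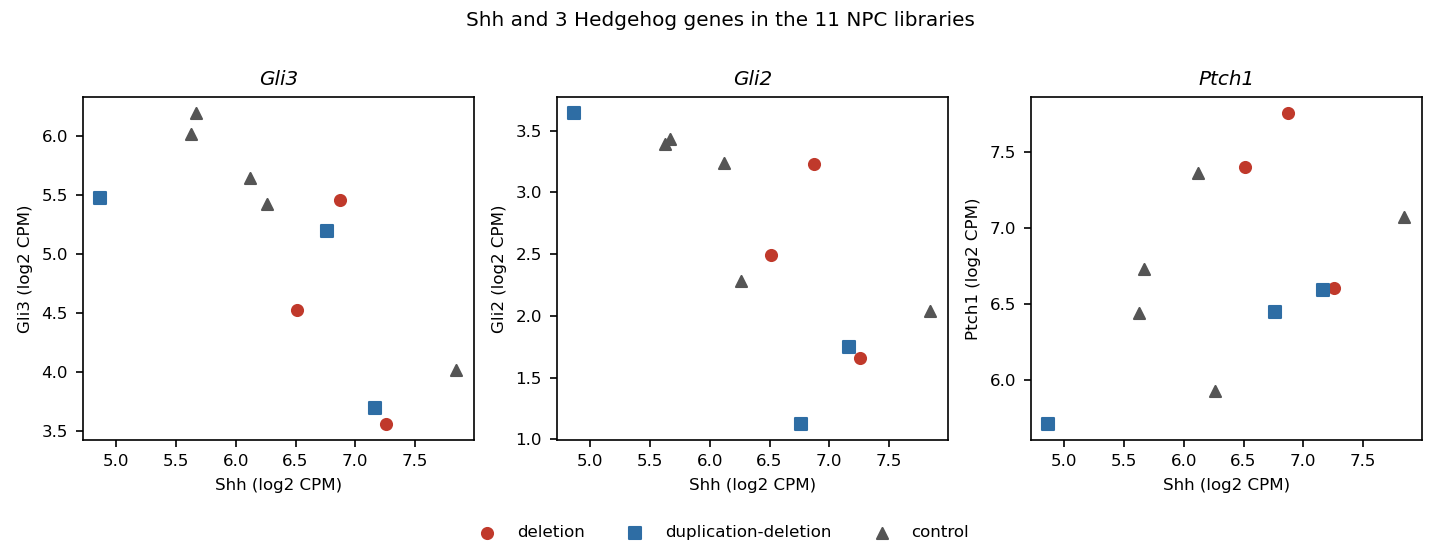
Gli3, Gli2 and Ptch1 against Shh in the 11 NPC libraries, both axes in log2 CPM, 1 symbol per library by genotype. Gli3 and Gli2 are lower where Shh is higher, with r = -0.768 and -0.741, and Ptch1 shows no relation that passed (r = 0.460).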

How the data were processed

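Stranded total RNA (TruSeq) from 28 libraries was sequenced as paired ends, per the labels' protocols. The authors used STAR 2.6.0c, RSEM 1.3.0 and DESeq2 1.22.2 with the mm9 build, per the submitters' processing notes. The deposited table holds expected counts per gene, estimated by the authors and not normalized; whether counting used strand is not given in the sources used here. The authors' deposited comparison table holds log2 fold changes, p-values, a mean normalized signal and a Wald score per gene, made with DESeq2. Of 29968 entries, 92 are spike-ins and were left out of library sizes and tests; 6392 entries were not whole numbers in some library and were rounded. Spike-ins took 1.80%, 0.732% and 0.738% of the counts in the first ESC replicates. The 6 Hi-C samples were not analysed here.

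Counts were tested with edgeR 4.0.16 (filterByExpr by group, TMM, robust quasi-likelihood fits, two-sided) in R 4.3.3, with limma 3.58.1 and DESeq2 1.42.0 as alternatives. The 3 genotypes of a stage, or the 3 stages of a genotype, shared 1 fit; differences between stages came from 1 fit of all libraries. Benjamini-Hochberg adjustment ran over all genes tested, with a threshold of 0.05. The SE is the log2 change divided by the square root of F, and 95% intervals use the t distribution with edgeR's degrees of freedom. CPM used TMM over all libraries, and log2 CPM a prior count of 2. Tests were tried on simulated data first. For deletion over control, changes of 1 on the log2 scale were recovered in 3% of cases in ESCs, 9% in NPCs and 0% in neurons. Changes of 2 were recovered in 46%, 71% and 28%. For control NPCs over ESCs the shares recovered were 5% and 59%. In each simulation 100 genes were changed by each size and all other genes were left unchanged. In the real control NPCs over ESCs 21% of genes passed as higher and 20.5% as lower, which loosens the adjusted threshold. The simulated shares therefore do not measure recovery in the tests between stages. False calls made up 2% to 9.86% of calls over these comparisons.

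Replicate numbers were checked for pairing. In ESCs all 9 same-number pairs of libraries deviated together (r between 0.498 and 0.863), which pairs them. In NPCs 6 of 7 pairs and in neurons 3 of 4 had r over 0.1. The median r of same-number pairs was 0.556 in NPCs and 0.552 in neurons, against -0.0651 and -0.0918 for different numbers. So libraries of a number mostly deviated together there too, though not in every pair. The contrast with different numbers is partly fixed in neurons, where the 2 libraries of a mutant group deviate by exactly opposite amounts. Control neuron replicate 1 had r = 0.645 with deletion replicate 1 and -0.645 with deletion replicate 3. Across stages r was over 0.1 in 6 of 10 control, 4 of 6 deletion and 2 of 4 duplication-deletion pairs, which does not pair them. None of 33 pairs of replicates were identical. The members, the pathway and marker lists and the rule for named genes (up to 4 per list that passed, by smallest p, with a mean of at least 1 CPM) were chosen with earlier results of these data known. Lists were described by counts and medians. The labels' description of duplication-deletion NPCs names the deletion alone, while title and genotype name both; the title was followed.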

Additional observations from a re-analysis of the deposited data

Results flagged for a closer look

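Notum, the secreted enzyme that removes the lipid from Wnt proteins, read 2.19 CPM in the third control NPC library, against 0.826 to 1.04 CPM in the other 4. The gap to its nearest neighbour was 0.841 of the group's range, above Dixon's critical value of 0.71 for 5 samples. Of 20 groups of 4 or 5 libraries tested in this way it was the 1 past its critical value, and chance gives about 1 in 20. A deletion NPC library, the fifth replicate, read 2.49 CPM.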

How the results depend on the processing

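No called value changed sign under any alternative. Of 190 results for single genes, 188 kept their side of the threshold with DESeq2, 188 with DESeq2's size factors, 187 with limma-voom, 189 with no filter on low counts and 183 with the replicate block; 148 of 150 did when only the 2 groups compared entered the fit, 153 of 160 without the shallow libraries and 1481 of 1510 when 1 library was left out. Some calls were lost with the block, whose numbers did not pair libraries across stages. In control NPCs over ESCs these were Gli2 (adjusted p = 0.0575) and Ptch1 (0.125). In duplication-deletion NPCs over ESCs they were Sp5 (0.286) and Hhip (0.0508), and in deletion neurons over NPCs Sp5 (0.0561), all by edgeR. Gli2 in duplication-deletion NPCs over ESCs passed with the block (0.0307), DESeq2's size factors (0.0499), no filter (0.0495), DESeq2 (0.0116) and limma-voom (0.0103), and Ptch1 there with the block (0.0364) and Notum with DESeq2 (0.0215). In deletion neurons over NPCs Gli2 was lost with DESeq2's size factors (0.0574) and limma-voom (0.127), and Nkd1 passed with limma-voom (0.0239). With the plain library total in place of TMM, 79 of 90 mean CPM values moved by less than 1 SD and 11 by more.

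Members called in deletion neurons over NPCs numbered 5, and 3 without the shallow libraries or with only the 2 groups in the fit, and 1 to 3 when 1 library was left out; in duplication-deletion cells the number was 1, and 0 to 1. For the deletion effect in neurons minus NPCs it was 0, and 0 to 1. The causes were not tested.

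Counts over all genes moved more. In duplication-deletion NPCs over ESCs the block gave 3214 genes. In duplication-deletion neurons over NPCs DESeq2 gave 4323, limma-voom 4221 and single omissions 808 to 2484, and in deletion cells single omissions gave 1936 to 2723. Between genotypes (deletion over control, duplication-deletion over control, deletion over duplication-deletion), DESeq2 called 7, 4 and 18 genes in ESCs, 93, 49 and 101 in NPCs and 64, 158 and 246 in neurons, and 37 and 8 for the deletion effects and 30 and 34 for the duplication-deletion effects (NPC minus ESC, then neuron minus NPC). The block gave 9, 7 and 13 in ESCs, 11 for deletion over control and 2 for deletion over duplication-deletion in NPCs, 13, 40 and 21 in neurons, 4 for the deletion effect in NPCs minus ESCs, and 0 and 1 for the duplication-deletion effects. Limma-voom gave 0, 1 and 1 in NPCs, 2 for deletion over duplication-deletion in neurons, 2 and 2 for the deletion effects and 5 for the duplication-deletion effect in NPCs minus ESCs. Without the shallow libraries the counts were 2 for duplication-deletion over control and 3 for deletion over duplication-deletion in ESCs, 0 for the deletion effect in neurons minus NPCs, and 0 and 1 for the duplication-deletion effects. DESeq2's size factors gave 1 for duplication-deletion over control in NPCs. The 2-group fits gave 3, 1 and 1 in NPCs and 0 for deletion over duplication-deletion in neurons, and no filter gave 14 and 26 for duplication-deletion over control and deletion over duplication-deletion in neurons. Single omissions gave 0 to 1 for deletion over duplication-deletion in ESCs, 0 to 1, 1 to 3 and 0 to 8 in NPCs, 0 to 1, 0 to 6 and 0 to 17 in neurons, 0 to 2 and 0 to 40 for the deletion effects and 1 to 3 for the duplication-deletion effect in NPCs minus ESCs.

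Depth limits the precision of Sp5 and Notum, and of Nkd1 in ESCs, which lie near 1 CPM in several groups.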
